A study of Mus musculus with 11 samples.

Results

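Gata1, Gata2, Zfpm1, Klf1, Epor, Gfi1b, Nfe2, Tal1, Mfsd2b and Tfrc, 10 of the 37991 genes counted, were followed through the RNA-Seq of mouse hematopoietic stem cells (HSC). They were picked by symbol as Gata factors and genes of the erythroid program, with differential expression results of these same libraries known. Their fold changes and adjusted p-values are therefore values the choice could draw on, and they are given as a description and not as independent evidence. All 10 passed the filter on low counts in each comparison.

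Gata2 is a zinc finger transcription factor of stem and early progenitor cells, and Gata1 takes over many of its sites as cells commit to the erythroid, megakaryocyte and mast cell lineages. Gata1 works with its cofactor Zfpm1 (Fog1) and in complexes with Tal1, and it switches on Klf1, the erythroid Krüppel-like factor, as well as Epor, the receptor for erythropoietin. Low levels of such transcripts in stem cells are often called priming, as they precede the proteins of the mature red cell.

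HSC (Lin-CD48-c-Kit+Sca1+CD135-CD150+) had been sorted in aliquots of 1000 cells from C57BL/6 mice aged 8 weeks, and the cDNA was amplified before sequencing. Control mice (4 libraries) were wild type by their labels and littermates by the methods. NA10hd mice (4 libraries) carried the NUP98-HOXA10HD fusion at the ROSA26 locus behind a loxP-stop-loxP cassette, opened by Vav-Cre, which acts across the hematopoietic system. NV mice (3 libraries) carried NrasG12D behind a cassette of the same kind, opened by the same Vav-Cre. The Cre was thus active in every blood cell type and not in HSC alone. The paper's figure captions call the libraries of a genotype biological replicates. Whether aliquots of a genotype came from separate mice is not given, so the p-values measure the spread between these libraries.

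Total counts were 5464815 to 12610189 per control library, 7624638 to 12180230 per NA10hd library and 9981499 to 14283008 per NV library. NA10hd replicates 4 and 1 had the fewest genes detected (13859 and 14430, against 15361 to 15900 in the others). NA10hd replicate 4 was also the only library with Xist and without Y-linked counts. Control replicates 1 and 4 and NA10hd replicates 1 to 3 held Y-linked counts alone, and the other libraries held both. Kit, a gene of the sort, had 240.6 to 472.7 CPM in every library. Nras had 68.4 to 93.5 CPM in control, 82.8 to 108.4 CPM in NA10hd and 113.7, 113.2 and 110.6 CPM in NV, and neither Nras nor Nup98 or Hoxa10 was called in any comparison. Counts on these whole genes do not separate the mutant Nras allele or the fusion from the endogenous transcripts.

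In NV HSC, Gata1, Klf1, Epor and Mfsd2b were higher than in control HSC, and the other 6 genes were not called. Genes were called differentially expressed (DEG) at a fold change above 1.5 and a p from edgeR's quasi-likelihood test that stayed under 0.05 after Benjamini-Hochberg adjustment over every gene tested. The background was 641 DEGs of 13462 genes tested in NV against control (4.76%), with 343 higher in NV (2.55%). For NA10hd against control, 0 of the 10 were DEGs, where 1 of 13060 genes was (0.00766%). For NA10hd against NV, Gata1, Klf1 and Mfsd2b, 3 of the 10, were lower in NA10hd, where 685 of 13461 genes were DEGs (5.09%) and 376 were lower in NA10hd (2.79%). The plot of levels by library gives all values of the 10 genes.

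**Figure D1:**
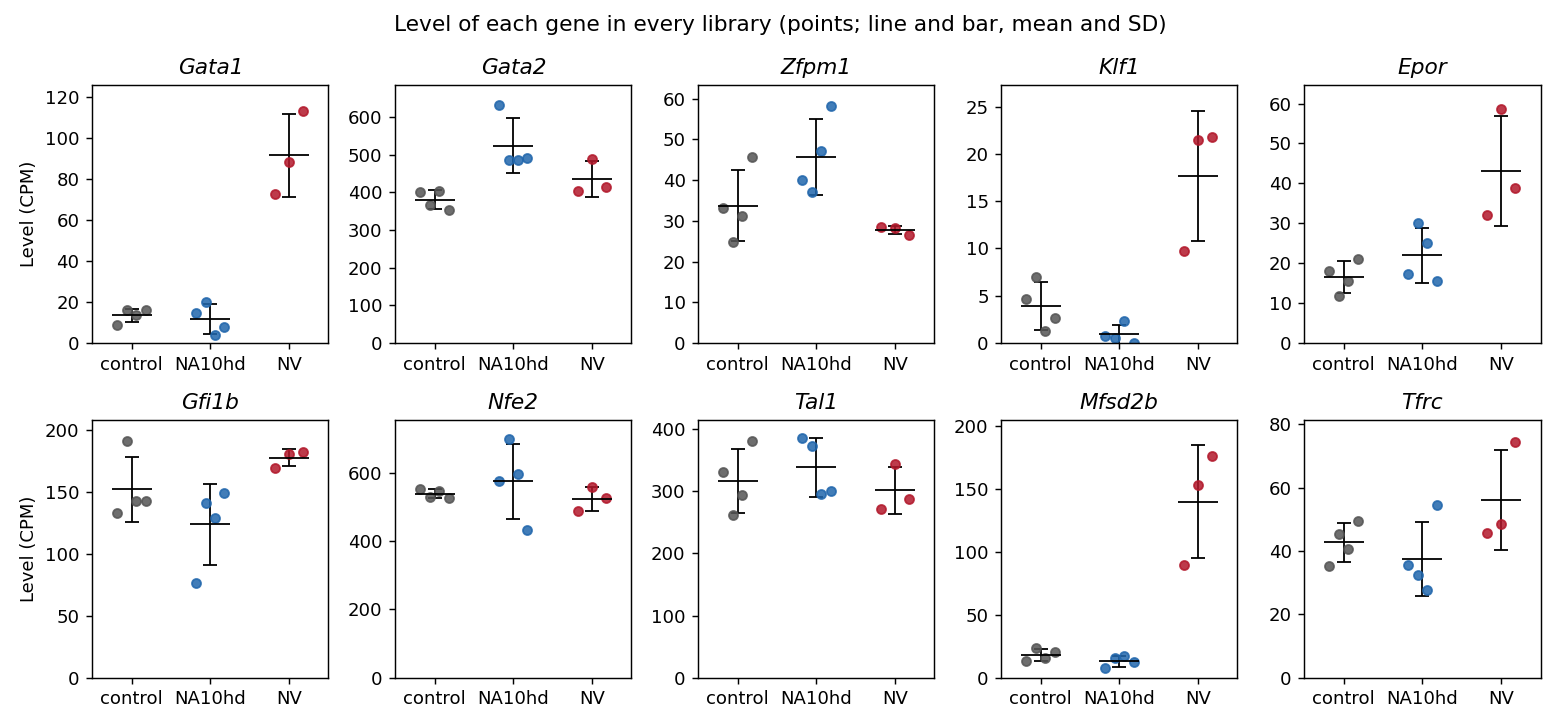
Level of each of the 10 genes (CPM, counts scaled to library size with TMM factors) in 4 control, 4 NA10hd and 3 NV libraries. Each point is a library, and the line and bar are the mean and SD. The NV points of Gata1, Klf1, Epor and Mfsd2b all lie above every control point, while those of Nfe2, Tal1, Tfrc, Zfpm1 and Gfi1b overlap the range of the control points.

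Gata1 (ENSMUSG00000031162, chromosome X, 7536386 to 7555197 of NCBIM37) had levels of 8.89, 15.9, 13.4 and 15.8 CPM in the control libraries, 14.8, 19.9, 3.94 and 7.70 CPM in NA10hd and 72.9, 88.3 and 113.3 CPM in NV. The lowest NV library was thus well above the highest of the other 8, while the NA10hd libraries spread to both sides of control. Control libraries averaged 13.5 ± 3.28 CPM (SD, n = 4) and the NV libraries 91.5 ± 20.4 CPM (SD, n = 3). The fitted log2 fold change was 2.74 (SE 0.23, adjusted p = 8.586e-05 from edgeR), a fold of 6.67, and its p ranked 6 among the 13462 genes tested. In bulk aliquots, more cells with a transcript and more transcript per cell cannot be told apart. Gata1 is X-linked and the libraries differed in their Xist and Y-linked counts. With the libraries of the same mix alone, NV replicates 1 to 3 against control replicates 2 and 3, the log2 fold change was 2.64 (edgeR, adjusted p = 0.002376). This mix was matched on the presence of Xist and Y-linked counts and not on their level. Y-linked Ddx3y had 60.4 to 87.7 CPM in control and 29.3 to 42.2 CPM in NV, a DEG lower in NV by edgeR.

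Gata2 (ENSMUSG00000015053, chromosome 6, 88143885 to 88157024) was abundant in every library. Its levels were 400.1, 366.7, 402.6 and 353.3 CPM in control, 632.8, 485.1, 485.2 and 492.5 CPM in NA10hd and 403.3, 489.4 and 413.7 CPM in NV. The NA10hd and the NV libraries all lay above the control ones, the closest NV library by less than 1 CPM. The log2 fold change was 0.18 (SE 0.11, adjusted p = 0.395) in NV and 0.47 (SE 0.14, adjusted p = 0.280) in NA10hd, neither a DEG by edgeR. NA10hd replicate 1 was the highest, and the other 3 NA10hd libraries lay close together.

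Set against each other per kb of exon, Gata2 exceeded Gata1 in every library, by a margin that differed with genotype. The ratio of the Gata2 level to the Gata1 level was 32.7, 16.8, 21.8 and 16.2 in control, 31.1, 17.7, 89.7 and 46.5 in NA10hd and 4.02, 4.03 and 2.66 in NV. No NV library came near the lowest control ratio, and the NA10hd ratios spread widely, with replicates 3 and 4 above all control libraries. Means were 21.9 ± 7.64 (SD, n = 4) in control, 46.2 ± 31.2 (SD, n = 4) in NA10hd and 3.57 ± 0.79 (SD, n = 3) in NV. The plot of the ratio shows the separate NV group.

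**Figure D2:**
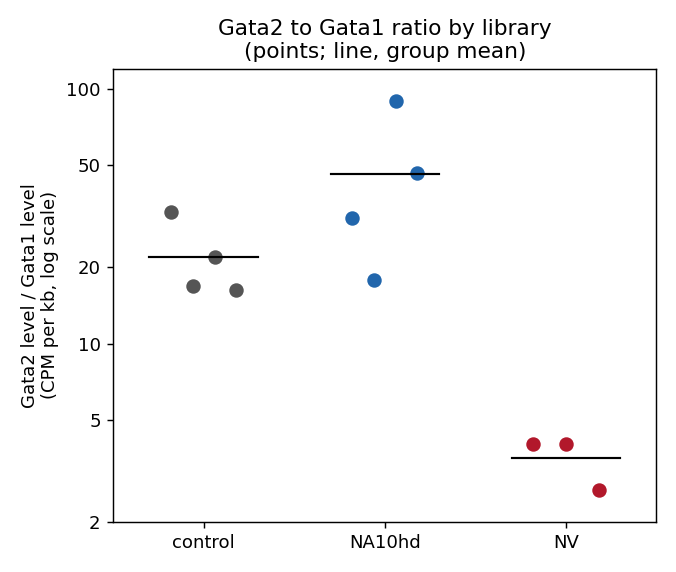
Ratio of the Gata2 level to the Gata1 level, both as CPM per kb of exon, on a log axis. Each point is a library and each line a group mean. The 3 NV points lie between 2.66 and 4.03, and the 8 others between 16.2 and 89.7.

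Zfpm1 (ENSMUSG00000049577, chromosome 8), which encodes the Gata cofactor Fog1, did not follow Gata1. It had 33.1, 24.8, 31.2 and 45.6 CPM in control, 40.1, 37.1, 47.1 and 58.1 CPM in NA10hd and 28.5, 28.2 and 26.6 CPM in NV. The NV libraries lay close together at the low end of the control range, and all NA10hd libraries lay above them. The log2 fold change was -0.29 (SE 0.22, adjusted p = 0.547) in NV against control and 0.72 (SE 0.25, adjusted p = 0.132) in NA10hd against NV, neither a DEG by edgeR.

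Tal1 (ENSMUSG00000028717, chromosome 4), the helix-loop-helix factor of the Gata complexes, had 261.3 to 381.3 CPM in control, 295.8 to 385.2 CPM in NA10hd and 271.7 to 344.2 CPM in NV. All 3 ranges overlapped, and the log2 fold changes were 0.10 (SE 0.16) in NA10hd and -0.09 (SE 0.14) in NV. Nfe2 (ENSMUSG00000058794, chromosome 15), the leucine zipper factor that acts with small Maf proteins in erythroid cells and megakaryocytes, had 526.7 to 552.6 CPM in control, 433.1 to 699.8 CPM in NA10hd and 486.9 to 558.6 CPM in NV. Its control libraries were the tightest of any gene here, with a coefficient of variation of 2.32%, and the NA10hd libraries lay on both sides of them. The log2 fold changes of Nfe2 were 0.10 (SE 0.15) in NA10hd and -0.05 (SE 0.09) in NV.

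Gfi1b (ENSMUSG00000026815, chromosome 2), a zinc finger repressor that erythroid cells and megakaryocytes need, had 133.0, 190.9, 142.8 and 142.4 CPM in control, 76.5, 141.4, 129.3 and 149.2 CPM in NA10hd and 169.6, 180.8 and 182.2 CPM in NV. The NV libraries lay within the control range, whose top was set by control replicate 2 alone, and all of them lay above the NA10hd ones. The log2 fold change was 0.21 (SE 0.14, adjusted p = 0.457) in NV against control and -0.52 (SE 0.22, adjusted p = 0.216) in NA10hd against NV, with no DEG call by edgeR.

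Klf1 (ENSMUSG00000054191, chromosome 8, 87425827 to 87429194), the factor that drives the globin and membrane genes of red cells, was the least counted gene of the set. It had 26, 74, 16 and 20 counts in the control libraries, 6, 7, 26 and 0 in NA10hd and 122, 314 and 226 in NV. These correspond to 1.28 to 7.03 CPM in control, at most 2.27 CPM in NA10hd and 9.74, 21.4 and 21.8 CPM in NV. Every NV library lay above every other library, and NA10hd replicate 4 had no count, which allows up to 0.420 CPM at 3 counts (counting error only). The log2 fold change was 2.17 (SE 0.50, adjusted p = 0.02574 from edgeR) in NV against control. Its size stayed between 1.85 and 2.67 on the log2 scale under all 16 alternatives, and the call was kept under 9 of them. Among the 16 were calls without the fold threshold, which read the main fit and could lose no call. In edgeR the adjusted p was 0.115 without NV replicate 3 (log2 fold change 1.98) and 0.110 without NV replicate 2 (2.01). It was 0.05543 without control replicate 1 (2.26), 0.07338 without control replicate 4 (2.04), 0.243 with all 3 groups in one fit (2.17) and 0.152 with the same Xist and Y-linked mix (2.10). In NA10hd against control the log2 fold change of Klf1 was -2.09 (SE 1.01, edgeR, adjusted p = 0.440), and 3 of the 4 NA10hd libraries lay below the lowest control library.

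Epor (ENSMUSG00000006235, chromosome 9, 21763343 to 21768020) had 18.1, 11.7, 15.6 and 21.1 CPM in control, 17.3, 30.1, 25.0 and 15.4 CPM in NA10hd and 32.0, 58.7 and 38.8 CPM in NV. NV replicate 2 was the highest, and every NV library lay above every control and NA10hd library. The log2 fold change in NV against control was 1.37 (SE 0.26, adjusted p = 0.01051 from edgeR), and without NV replicate 2 it was 1.09 with an adjusted p of 0.06898. In NA10hd against NV it was -0.97 (SE 0.32), which was not a DEG by edgeR (adjusted p = 0.116).

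Mfsd2b (ENSMUSG00000037336, chromosome 12, 4869246 to 4881165) encodes the sphingosine-1-phosphate (S1P) exporter of red cells and platelets, and it showed the greatest fold of the 10 in NV against control. Its levels were 13.5, 23.5, 15.3 and 20.3 CPM in control, 7.40, 15.3, 17.6 and 12.2 CPM in NA10hd and 89.8, 153.1 and 176.3 CPM in NV. The NV libraries stood far above the rest, and the NA10hd and control ranges overlapped. Control libraries averaged 18.1 ± 4.60 CPM (SD, n = 4) and NV libraries 139.7 ± 44.8 CPM (SD, n = 3), with a log2 fold change of 2.93 (SE 0.25, adjusted p = 8.586e-05 from edgeR, rank 8 of the genes tested). Its edgeR log2 fold change in NA10hd against NV was -3.40 (SE 0.32, adjusted p = 0.0004047).

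Tfrc (ENSMUSG00000022797, chromosome 16), the transferrin receptor through which erythroblasts and dividing cells take up iron, had 35.2, 45.4, 40.6 and 49.7 CPM in control, 35.5, 32.4, 27.6 and 54.5 CPM in NA10hd and 45.7, 48.5 and 74.5 CPM in NV. NV replicate 3 alone exceeded all control and NA10hd libraries, and the groups overlapped. The log2 fold change was 0.38 (SE 0.21, adjusted p = 0.348) in NV and -0.18 (SE 0.25, adjusted p = 0.823) in NA10hd, with no DEG call by edgeR.

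**Figure D3:**
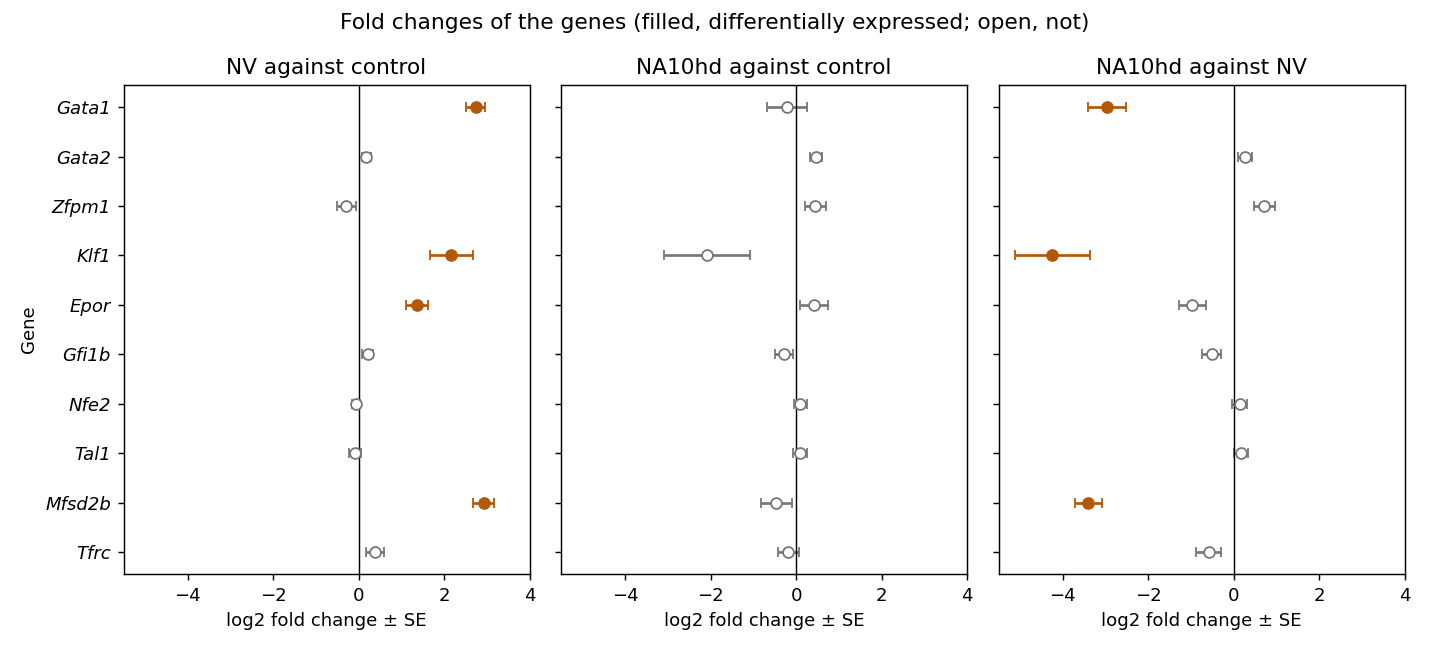
Log2 fold change of the 10 genes in the 3 comparisons (points), with the standard error (bars). Filled points are DEGs. In NV against control the DEGs run from 1.37 (Epor) to 2.93 (Mfsd2b), in NA10hd against control none is filled, and in NA10hd against NV the filled points run from -2.97 (Gata1) to -4.25 (Klf1).

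Counted by the libraries alone, 5 of the 10 genes (Gata1, Gata2, Klf1, Epor and Mfsd2b) had NV and control libraries that did not overlap, all higher in NV, against 18.9% of all genes tested. In NA10hd against control it was Gata2 alone, against 7.92% of all genes. In NA10hd against NV it was 6 of the 10, against 21.0% of all genes. Gata1, Klf1, Epor, Gfi1b and Mfsd2b were lower there and Zfpm1 was higher. The median log2 fold change over the 10 genes was 0.30 in NV against control, where that of all tested genes was -0.01. It was -0.04 in NA10hd against control, beside 0.02 for all genes.

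NA10hd HSC had no DEG among the 10 by edgeR, DESeq2 or limma-voom. At an unadjusted p under 0.05 in edgeR there was 1, Gata2, whose adjusted p was 0.05018 in DESeq2. Over the whole table edgeR called 1 gene, with 1552 at an unadjusted p under 0.05, limma-voom called 2 and DESeq2 called 240. For Gata1 the NA10hd libraries varied more than the others, with a coefficient of variation of 61.7%, against 24.3% in control and 22.3% in NV. Without NA10hd replicate 4, Gata2 had a log2 fold change of 0.49 and Klf1 of -1.70, and none of the 10 was called.

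The direct comparison of the mutant genotypes gave a log2 fold change of -2.97 for Gata1 (SE 0.45, adjusted p = 0.00407), -4.25 for Klf1 (SE 0.88, adjusted p = 0.01989) and -3.40 for Mfsd2b in edgeR. Without NA10hd replicate 4 these were -2.82, -3.87 and -3.37, all still DEGs. That of Klf1 was lost without NV replicate 2 (adjusted p = 0.120) or NV replicate 3 (adjusted p = 0.126). Whether part of these differences went with the Xist and Y-linked mix was not tested, as no NA10hd and NV libraries shared it.

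In units of CPM per kb of exon, which allow genes to be set side by side, the control order was Nfe2 (180.4), Gata2 (113.6), Gfi1b (83.2), Tal1 (72.4), Zfpm1 (9.94), Epor (9.08), Tfrc (6.91), Gata1 (5.54), Mfsd2b (3.53) and Klf1 (2.54). The libraries of Nfe2, Gata2 and the pair of Gfi1b and Tal1 lay apart from their neighbours, and a wide gap separated Tal1 from Zfpm1. From Zfpm1 down, each gene's libraries overlapped those of the next. In NV HSC the first 4 places were the same, and Gata1 (37.5), Mfsd2b (27.1), Epor (23.6) and Klf1 (11.5) then came ahead of Tfrc (9.09) and Zfpm1 (8.20). Gata1 in NV still lay below Tal1 (68.8) in every library. In NA10hd HSC the order differed from control in 1 place, Tal1 (77.3) ahead of Gfi1b (67.8), whose libraries overlapped.

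**Figure D4:**
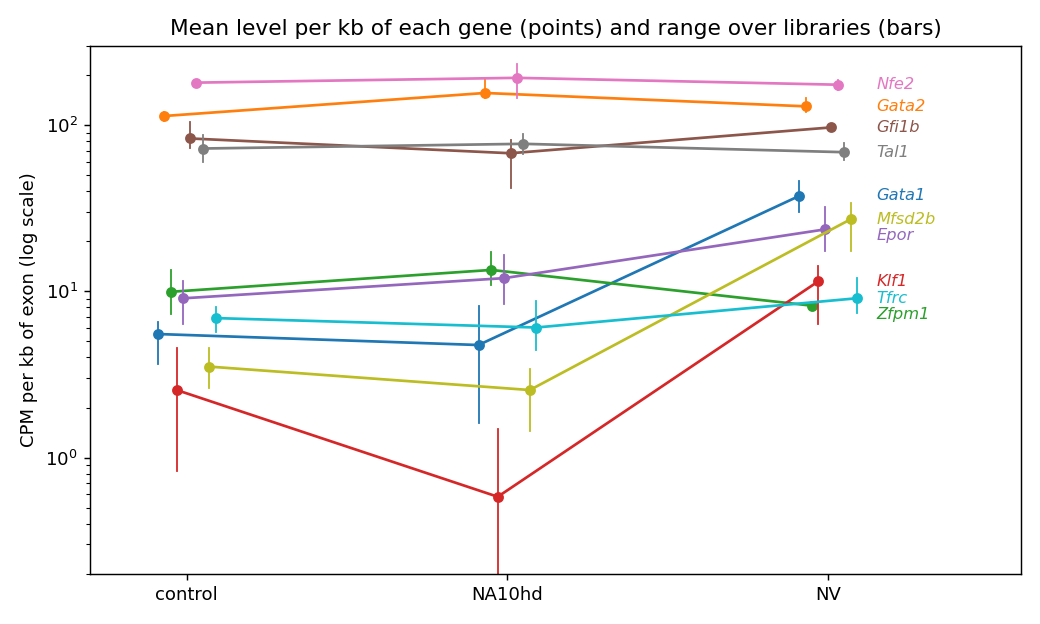
Mean level per kb of exon (CPM per kb, log axis) of the 10 genes in each genotype, as points joined by a line per gene, with bars from the lowest to the highest library. The points of Gata1, Mfsd2b, Epor and Klf1 lie higher in NV than in control, and Nfe2, Gata2, Gfi1b and Tal1 stay above all others. The bar of Klf1 in NA10hd is cut at the axis, as its lowest library is at 0.

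The promoters of the 4 genes called in NV are shown, as the Gata and Krüppel-like factors of the set bind known short motifs. These 4 genes share the difference in NV by which they were picked. The 250 bases before the RefSeq transcript start were taken from GRCm38.p6, another build than that of the counts: Gata1 at chrX:7967911-7968160 (minus strand), Klf1 at chr8:84901732-84901981 (plus), Epor at chr9:21963577-21963826 (minus) and Mfsd2b at chr12:4874360-4874609 (minus). They are written from 5′ to 3′ along the gene, and capitals mark a GATA motif (AGATAA or AGATAG or TGATAA or TGATAG) or a CACCC motif, on either strand, with no overlap between the motifs here.
Gata1: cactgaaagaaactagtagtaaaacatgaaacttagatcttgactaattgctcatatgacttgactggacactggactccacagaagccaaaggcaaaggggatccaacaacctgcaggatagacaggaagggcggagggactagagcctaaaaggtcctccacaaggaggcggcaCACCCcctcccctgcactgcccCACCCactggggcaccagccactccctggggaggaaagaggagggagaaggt
Klf1: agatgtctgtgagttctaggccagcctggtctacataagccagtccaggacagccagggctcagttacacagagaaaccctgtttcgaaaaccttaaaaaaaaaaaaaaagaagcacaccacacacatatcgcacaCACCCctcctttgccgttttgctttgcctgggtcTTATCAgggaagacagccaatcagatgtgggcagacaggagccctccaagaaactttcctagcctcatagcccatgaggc
Epor: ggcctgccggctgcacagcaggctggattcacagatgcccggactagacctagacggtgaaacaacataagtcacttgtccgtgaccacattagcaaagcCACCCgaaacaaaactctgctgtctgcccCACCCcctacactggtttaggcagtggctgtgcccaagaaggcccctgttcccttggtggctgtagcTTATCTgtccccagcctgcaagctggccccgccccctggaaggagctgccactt
Mfsd2b: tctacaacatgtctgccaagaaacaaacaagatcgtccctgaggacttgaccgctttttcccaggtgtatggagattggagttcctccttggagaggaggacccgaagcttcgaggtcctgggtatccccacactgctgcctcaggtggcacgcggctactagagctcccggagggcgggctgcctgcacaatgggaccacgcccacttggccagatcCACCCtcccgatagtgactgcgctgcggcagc
Klf1 and Epor each held 1 GATA motif on the reverse strand, 80 and 54 bases before the start, and Gata1 and Mfsd2b held none in this window. CACCC motifs numbered 2 in Gata1, 1 in Klf1, 2 in Epor and 1 in Mfsd2b. Of all 32851 promoters of this length, 26.5% held a GATA motif and 52.0% a CACCC motif. Of the 10 genes, 9 had entries (all but Nfe2), and 4 of these 9 held a GATA motif in at least 1 entry, Gfi1b and Tal1 beside Klf1 and Epor, while all 9 held a CACCC motif. Counted by entry, as the shares over all promoters are, 4 of their 12 entries held a GATA motif and 10 held a CACCC motif. These matches are letters in a window and no binding was measured.

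The partners and pathways of the 10 genes were read from 11 lists, together 129 genes, of which 106 were tested in NV against control. The lists were written with results of these libraries known. edgeR called 13 of them, 5 higher and 8 lower in NV, where 4.76% of all genes tested were called. In NA10hd against control it called 0 of 106, with 18 at an unadjusted p under 0.05, as 1552 of all 13060 genes were (11.9%). In that comparison, NA10hd against control, DESeq2 called 1 gene each of the Klf1, iron and early erythroid lists, and limma-voom called none. In NV against control 2626 of all 13462 genes were at an unadjusted p under 0.05 (19.5%), as were 40 of these 106. The plot by list sets the 10 genes beside their partners.

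**Figure D5:**
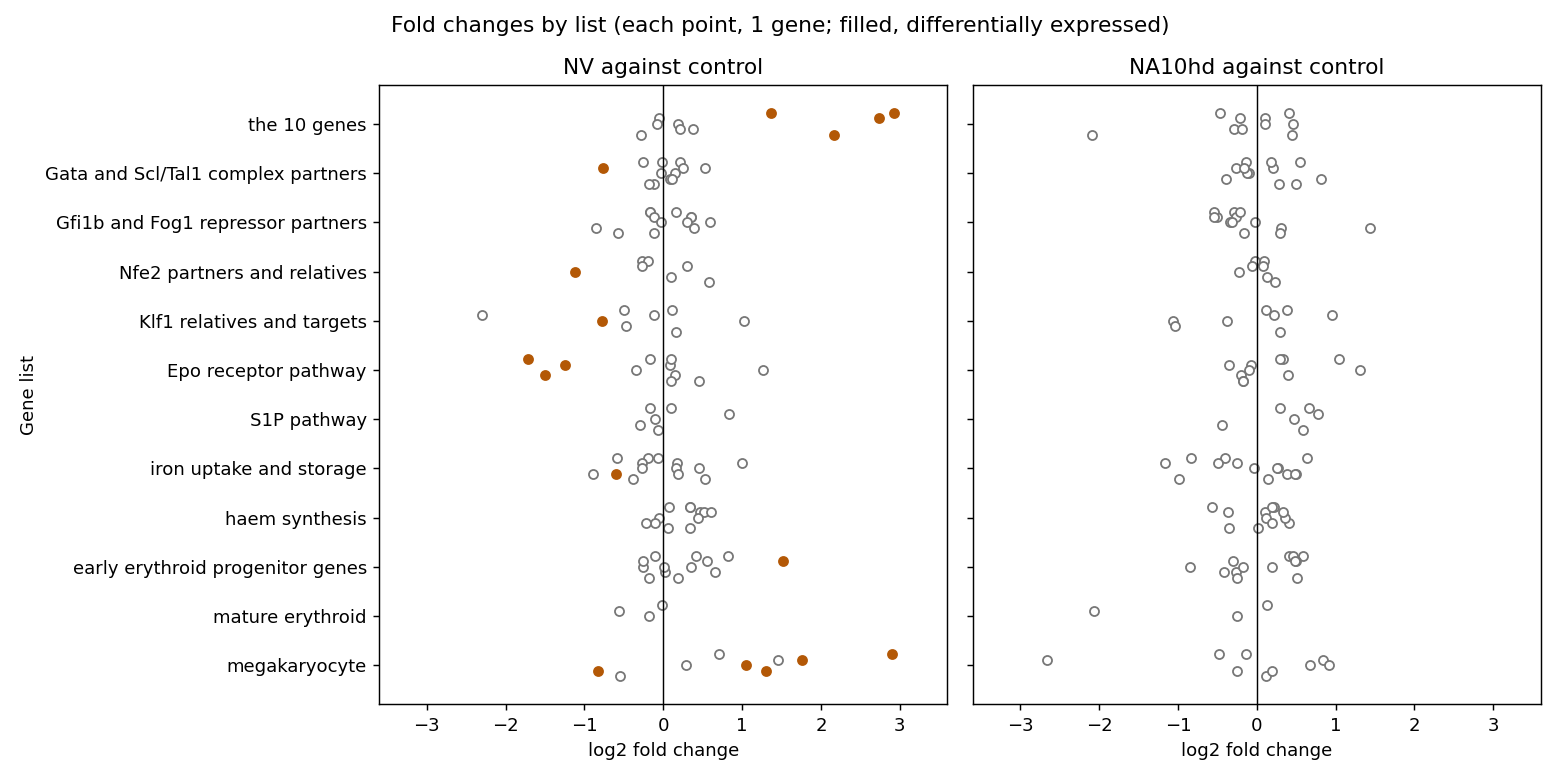
Log2 fold change of each tested gene (points), by list, in NV against control and in NA10hd against control. Filled points are DEGs. Most partners lie near 0, the filled points of the erythropoietin receptor pathway lie below 0 in NV (-1.24 to -1.71), and those of the megakaryocyte list run from -0.83 (Vwf) to 2.91 (Pf4).

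Among the 12 partners of the Gata and Tal1 complexes, 1 was lower in NV, Erg, an ETS factor of stem cells, with a log2 fold change of -0.77 (SE 0.18, edgeR, adjusted p = 0.02535). That call was kept under 8 of 16 alternatives, with log2 fold changes of -0.88 to -0.52 over the 16. It was lost without any 1 NV library, without control replicate 1 or 4, with the same Xist and Y-linked mix, with all 3 groups in one fit and with replicate numbers in the model. The most abundant partners, Lmo2, the bridging protein of the complex, and Myb, had log2 fold changes of -0.12 (SE 0.10) and 0.25 (SE 0.10) without a call. Of 13 repressor partners of Gfi1b and Fog1, 0 were called by edgeR in NV against control, with 4 of the 13 at an unadjusted p under 0.05 (19.5% of all genes), and DESeq2 and limma-voom called none either. In NA10hd against NV, Gfi1, the paralog of Gfi1b, was higher (2.28, SE 0.47, edgeR, adjusted p = 0.01971). Its levels were 11.2 to 37.9 CPM in control, 106.9, 71.3, 43.0 and 21.3 CPM in NA10hd and 10.9, 12.6 and 13.9 CPM in NV, so that every NA10hd library lay above every NV library. Neither Gfi1 nor Gatad2a was called there with any 1 NV library left out, nor was Gatad2a without NA10hd replicate 3 or with replicate numbers in the model. Gatad2a, a subunit of the NuRD repressor, was lower in NA10hd than in NV (-0.87, SE 0.21, edgeR, adjusted p = 0.03728). Rbbp7 and Mbd3, the most abundant of these partners without a call, had -0.44 (SE 0.18) and -0.34 (SE 0.19) there.

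Of 7 partners and relatives of Nfe2, Maff, a small Maf protein, was lower in NV (-1.13, SE 0.28, edgeR, adjusted p = 0.03534), while Nfe2l2 and Mafg, the most abundant, had -0.26 (SE 0.15) and 0.10 (SE 0.16). Of 8 relatives and targets of Klf1, Klf6 was lower in NV (-0.78, SE 0.16, edgeR, adjusted p = 0.01352). The call of Maff was lost without any 1 NV library or control replicate 2 or 3, that of Klf6 without NV replicate 3, and both with all 3 groups in one fit. Klf2 and Bcl11a, the repressor of fetal globin genes, had -0.50 (SE 0.17) and 0.11 (SE 0.13) without a call.

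The erythropoietin receptor pathway had 11 of its 12 genes tested, and in NV 3 were lower and 0 higher. Epo itself, the ligand, had 0 counts in every library. Socs2, a feedback inhibitor of cytokine signaling that Stat5 induces, had 87.0, 100.7, 132.3 and 102.8 CPM in control, 159.8, 126.4, 172.9 and 94.0 CPM in NA10hd and 33.4, 33.0 and 47.3 CPM in NV. No NV library reached the lowest of the others, and the log2 fold change was -1.50 (SE 0.19, edgeR, adjusted p = 0.001337). Cish, an inhibitor of the same family, and Pim1, a kinase gene that Stat5 also induces, had -1.24 (SE 0.19, adjusted p = 0.002989) and -1.71 (SE 0.44, adjusted p = 0.04407) in edgeR. Epor was thus higher in the same NV libraries in which these 3 genes were lower. The signaling genes Ptpn6 and Stat5b, the most abundant without a call, had 0.09 (SE 0.13) and 0.10 (SE 0.14). Pim1 kept its call under 6 of 16 alternatives (log2 fold change -2.04 to -1.29 over the 16). It was lost with any 1 library but control replicate 4 left out, in limma-voom, with all 3 groups in one fit, with the same Xist and Y-linked mix and with replicate numbers in the model. Socs2 and Cish were called under all 16.

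Of the 6 other S1P pathway genes tested beside Mfsd2b, 0 were called by edgeR, DESeq2 or limma-voom in any comparison. At an unadjusted p under 0.05 in edgeR were 1 in NV against control, 2 in NA10hd against control and 2 in NA10hd against NV. The shares of all genes were 19.5%, 11.9% and 19.5%. In NA10hd against control 5 of the 6 had a log2 fold change above 0, with a median of 0.53. Spns2, the S1P exporter of endothelial cells, and Sgpp1, an S1P phosphatase, had log2 fold changes of -0.17 (SE 0.12) and -0.29 (SE 0.15) in NV. Of 14 iron genes tested, Ftl1, the ferritin light chain, was lower in NV (-0.59, SE 0.09, edgeR, adjusted p = 0.002826) at a fold of 1.51, just past the threshold and under it without NV replicate 2 or control replicate 3 or 4, and Fth1, the heavy chain, had -0.27 (SE 0.08). Tfr2, the second transferrin receptor, had 0.45 (SE 0.11, edgeR, adjusted p = 0.03968), which fell short of the fold threshold. Of 12 heme synthesis genes tested, 0 were called by edgeR, DESeq2 or limma-voom in NV against control, with 5 of the 12 at an unadjusted p under 0.05 (19.5% of all genes), and the median log2 fold change was 0.33. Slc48a1, a heme transporter, and Tmem14c, the most abundant, had -0.22 (SE 0.10) and 0.34 (SE 0.17).

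The early erythroid list had 13 of 20 genes tested and 1 DEG in NV by edgeR, Aqp1, the red cell water channel, with a log2 fold change of 1.52 (SE 0.37, edgeR, adjusted p = 0.03314). Aqp1 had 11.2, 14.8, 21.5 and 14.9 CPM in control, 25.7, 7.69, 7.26 and 9.95 CPM in NA10hd and 18.3, 71.6 and 46.7 CPM in NV, so that NV replicate 1 lay within the control range. Without NV replicate 2 its log2 fold change was 1.04 and the call was lost. Aqp1 kept its call under 7 of 16 alternatives, and lost it also without NV replicate 3, without control replicate 1, 2 or 4, in limma-voom, with all 3 groups in one fit, with the same Xist and Y-linked mix and with replicate numbers in the model. DESeq2 called 3 genes of the list in NV, and edgeR called 2 with no filter on low counts or with 10 counts in every library. Car2 and Apoe, the most abundant, had 0.02 (SE 0.11) and 0.41 (SE 0.12) without a call. Muc13 had 194.6 to 338.1 CPM in control and 382.9 to 445.7 CPM in NV, without overlap and without a call in edgeR (0.65, SE 0.18, adjusted p = 0.05301). It was lower in NA10hd than in NV (-0.94, SE 0.15, edgeR, adjusted p = 0.006226), though not without NV replicate 2.

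Genes of the mature red cell were low in all genotypes. Of 15 genes matched, 3 were tested in NV against control, and 0 were called by edgeR, DESeq2 or limma-voom or had an unadjusted p under 0.05. Their summed level was 15.03 to 29.1 CPM in control, 3.64 to 18.8 CPM in NA10hd and 14.7 to 23.6 CPM in NV. Alas2, the erythroid heme enzyme, had 0 counts in all NV libraries. Hbb-b2 had 5.10 to 16.5 CPM in control, 0.728, 2.32, 5.86 and 1.40 CPM in NA10hd and 4.78 to 11.7 CPM in NV. Its NA10hd libraries lay mostly below control, with a log2 fold change of -2.06 (SE 0.70, edgeR, adjusted p = 0.297), and 1 of the 3 genes tested there had an unadjusted p under 0.05. Its reads may be shared with the near-identical Hbb-b1. Mast cell and basophil genes, which also belong to Gata cells, summed to at most 3.36 CPM in control, 6.06 CPM in NA10hd and 9.47 CPM in NV, with Mcpt8, Tpsb2 and Prss34 at 0 counts in every library.

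Megakaryocyte genes differed as well in NV. Of 9 tested, Pf4, Ppbp, Itga2b and Treml1 were higher and Vwf was lower. Pf4, platelet factor 4, had 17.3, 21.0, 28.6 and 16.1 CPM in control, 16.3, 9.37, 13.2 and 20.5 CPM in NA10hd and 68.6, 228.0 and 178.9 CPM in NV, with no overlap of NV with the others (2.91, SE 0.34, edgeR, adjusted p = 0.0009106). Itga2b, the platelet integrin CD41, had a log2 fold change of 1.30 (SE 0.23, edgeR, adjusted p = 0.006835), and Ppbp and Treml1 had 1.76 (SE 0.43, adjusted p = 0.03243) and 1.05 (SE 0.27, adjusted p = 0.0415). Gp9 and Gp1ba, platelet glycoprotein genes without a call, had 0.29 (SE 0.36) and 0.71 (SE 0.42). Vwf, which marks platelet-biased HSC, had -0.83 (SE 0.15, edgeR, adjusted p = 0.007915). The summed level of the list was 1125 to 1328 CPM in control and 1018 to 1230 CPM in NV. How far the megakaryocyte genes and Gata1 come from the same cells was not tested. With the libraries of the same Xist and Y-linked mix alone Pf4 was the one gene of these 5 still called, and with all 3 groups in one fit Pf4, Itga2b and Vwf were. The calls of Ppbp and Treml1 were also lost without NV replicate 1, 2 or 3, without control replicate 1, 2 or 4, or with replicate numbers in the model, and that of Treml1 also without control replicate 3.

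Between the mutant genotypes edgeR called 13 of the 107 genes tested in these 11 lists, 7 higher and 6 lower in NA10hd. Among those higher in NA10hd, beside Gfi1, were Erg (0.96), Socs2 (1.87), Pim1 (2.75), Ftl1 (0.96) and Vwf (1.01), as log2 fold changes. Among those lower were Pf4 (-3.42), Ppbp (-4.45) and Itga2b (-1.57), with Gatad2a and Muc13. These calls were fewer with 1 NV library left out, 3 over all lists without NV replicate 2, 5 without replicate 3 and 7 without replicate 1, against 17 with all libraries, marker lists included.

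Markers of HSC differed as well between the genotypes. In NV against control edgeR called 1 higher and 2 lower of the 8 tested, where 4.76% of all genes were called. Of the 8, 7 had a log2 fold change below 0 (median -0.53). An unadjusted p under 0.05 in edgeR was found for 6 of them, and for 19.5% of all genes. Procr and Fgd5 were lower in NV than in control (-0.72, SE 0.13, and -1.13, SE 0.27, edgeR, adjusted p = 0.008715 and 0.02844), and Ly6a, the Sca1 gene, was higher (0.70, SE 0.14, edgeR, adjusted p = 0.01262). None of these 3 was called with the same Xist and Y-linked mix, and single calls were lost without NV replicate 1 (Ly6a), NV replicate 2 (Fgd5), NV replicate 3 (Procr and Fgd5) or control replicate 1 or 4 (Fgd5). With all 3 groups in one fit Procr and Fgd5 lost their calls, and with replicate numbers in the model Ly6a did. Procr (1.41), Fgd5 (1.36) and Hlf (0.83), 3 of the 8 tested, were higher in NA10hd than in NV in edgeR, where 5.09% of all genes were called. Procr kept that call under all 15 alternatives. Fgd5 lost it without NV replicate 2 or 3, and Hlf without any 1 NV library. In NV against control Kit and Mecom had -0.11 (SE 0.13) and -0.31 (SE 0.14) without a call. Slamf1, Hlf and Ctnnal1, also without a call there, averaged 106.8, 403.1 and 82.8 CPM in control and 70.5, 294.3 and 55.1 CPM in NV. Transcripts that the sort should exclude summed to 6.07 to 19.6 CPM in control, 11.8 to 21.2 CPM in NA10hd and 11.3 to 13.4 CPM in NV. Lymphoid genes summed to at most 3.44 CPM in any library. Myeloid genes summed to 741 to 947 CPM in control, 835 to 1057 CPM in NA10hd and 747 to 804 CPM in NV. Lyz2 and Prtn3 were the most abundant of them. Prtn3 was higher in NA10hd than in NV by edgeR, a call kept under 10 of 15 alternatives. The part of these transcripts in the difference of Gata1, Klf1, Epor and Mfsd2b was not tested.

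Within the NV group the 4 called genes were lowest in the same library, as were most of the other members. Gata1, Klf1, Epor and Mfsd2b were each lowest in NV replicate 1, as were Aqp1, Pf4, Itga2b and Treml1, and Ppbp was lowest in replicate 3. Of the members not called, Gata2, Gfi1b, Nfe2, Tal1 and Tfrc were also lowest in NV replicate 1, and Zfpm1 was lowest in replicate 3. The share of all genes lowest in NV replicate 1 was not computed. The highest library was replicate 3 for Gata1, Klf1 and Mfsd2b and replicate 2 for Epor, Aqp1, Pf4 and Itga2b. In replicate 1 too, the 4 genes lay above every control library.

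Likeness of pattern was read as Pearson's r of log2(CPM + 1) over the 11 libraries, as a description. The libraries of a genotype share it, and for Gata1, Klf1 and Mfsd2b the NV libraries form a group of their own. The genes most like Gata1 were Ifi47 (r = 0.966), Gpsm2 (0.954) and 6720463M24Rik (0.951). Those most like Gata2 were 5730437N04Rik (0.918), Zfp212 (0.915) and Cbfa2t3 (0.891), and those most like Klf1 were 4930427A07Rik (0.963), Ccnb1 (0.960) and Trim12c (0.958). Among the 10 genes, Gata1 was most like Mfsd2b (r = 0.889), then Klf1 (0.764), Epor (0.721), Tfrc (0.644) and Gfi1b (0.487), and least like Zfpm1 (-0.670). Klf1 was most like Mfsd2b (0.894) and least like Zfpm1 (-0.766).

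Over the 8 control and NA10hd libraries alone, the likeness of Gata1 to Mfsd2b was 0.025 and to Klf1 0.00688, so that their shared pattern over 11 libraries rested on the NV group. Klf1 and Mfsd2b kept an r of 0.617 over these 8 libraries, and the 3 genes nearest to Gata1 had 0.756 to 0.895. Gata2 showed r of -0.124 with Gata1, -0.380 with Klf1, -0.668 with Gfi1b and 0.424 with Tal1 over the 11 libraries. Over the 8 control and NA10hd libraries these were -0.166, -0.673, -0.785 and 0.351. With Mfsd2b its r was -0.258 over the 11 and -0.84 over the 8.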

How the data were processed

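RNA-Seq of sorted HSC was analysed in 11 libraries (4 control, 4 NA10hd, 3 NV), grouped by the genotype in their labels. The authors amplified cDNA, prepared Nextera XT libraries, used HISAT2 for alignment to NCBIM37 and featureCounts for counting, and they deposited raw counts per Ensembl gene, without normalization (versions, annotation release and strand setting not given in the sources used here). cDNA amplification without molecular identifiers adds copies that are not independent molecules, so limits from counts cover counting error only. GENCODE vM1 gave symbols for 37205 of 37991 IDs.

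Each comparison was fitted on its own libraries with edgeR 4.0.16 (R 4.3.3), using TMM, filterByExpr at its defaults and the quasi-likelihood test. DESeq2, the tool of the study, was an alternative, and p-values were adjusted by Benjamini-Hochberg over all genes tested. The SE of a log2 fold change was its size divided by the root of the F statistic. Levels are CPM with TMM factors over the 11 libraries, per kb of merged exons where genes are compared. The alternatives were DESeq2 1.42.0, limma-voom (limma 3.58.1), DESeq2 size factors, no filter, a minimum of 10 counts per library, one fit of all 3 groups, the replicate number as a block, calls without the fold threshold, and omission of single libraries. Fits of libraries with the same Xist and Y-linked mix, matched on presence and not on level, were added after seeing the data. The calls were tested on simulated counts with known changes. A first criterion, on how many changed genes were recovered, was not met by edgeR for NA10hd against NV. It was then replaced, with that outcome known, by limits on the share of false calls and on the error of the fold change, which were met. The 10 genes and all lists were chosen with earlier results of these data known. Of each list, DEGs (up to 6 per comparison) and the 2 most abundant genes without a call were named, and for Gata1, Gata2 and Klf1 the 3 genes most like them at a mean of at least 5 CPM. Promoters came from RefSeq (GRCm38.p6). Figures were drawn with matplotlib. Some genes that the naming rule covers are not reported here.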

Additional observations from a re-analysis of the deposited data

Results flagged for a closer look

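In 2 of the 20 groups of 4 libraries examined (10 genes in control and in NA10hd), 1 library lay far from the other 3 by Dixon's test, and chance flags about 1 group in 20. Gata2 had 632.8 CPM in NA10hd replicate 1, a gap of 0.95 of the group's range. Gfi1b had 190.9 CPM in control replicate 2, a gap of 0.83. The NV group, with 3 libraries, was not examined in this way.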

How the results depend on the processing

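Gata1 and Mfsd2b were DEGs in NV against control under all 16 alternatives (log2 fold change 2.55 to 2.88 and 2.72 to 3.16) and in NA10hd against NV under all 15. Among these alternatives, calls without the fold threshold read the main fit, where a called gene could not lose its call. Epor was a DEG in NV in 15 of 16 and Klf1 in 9 of 16. The number of the 10 genes called in NV was 2 (without NV replicate 2, where Klf1 and Epor lost their calls) to 4 with each library left out, and 3 with the replicate block. Replicate numbers did not pair the libraries (correlation of deviations -0.109 to 0.034). With the replicate block the DEGs numbered 0, 432 and 581 for NA10hd against control, NV against control and NA10hd against NV, and Klf1 lost its call in NV (adjusted p = 0.08561). DEGs of all genes numbered 240, 1015 and 1489 by DESeq2 and 39, 155 and 1152 with all 3 groups in one fit. In NA10hd against control they numbered 2 by limma-voom, 8 with no filter and 8 with 10 counts in every library. With the same Xist and Y-linked mix they numbered 0 in NA10hd and 301 in NV. With each library left out they were 0 to 5, 263 to 643 and 146 to 771. Small log2 fold changes changed sign. In NA10hd against control, Gata1 ranged from -0.61 (without NA10hd replicate 2) to 0.074 (without NA10hd replicate 3) and Nfe2 from -0.0052 (without NA10hd replicate 2) to 0.214, and with the same mix Gata1 was 0.050 and Tal1 -0.028. In NV against control, Tal1 ranged from -0.19 to 0.018 (without control replicate 4), and was 0.018 with the replicate block and 0.11 with the same mix. In NA10hd against NV, Zfpm1 was a DEG by DESeq2 (adjusted p = 0.03347). The causes were not tested. Klf1 was too low for the filter of 10 counts in every library in the comparisons with NA10hd. With 3 or 4 libraries per group, and few counts for Klf1 outside NV, differences of its size in NA10hd were not resolved.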
